A study of Mus musculus with 20 samples.

Results

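Ascl2, Myc and Sox9 are transcription factor genes of the small-intestinal crypt, and their 3 rows were read by symbol in both deposited count tables, which held 11779 entries for GFP-low cells and 11746 for GFP-high cells. The genes were picked by name with earlier results of the same tables in view, and which values led to the choice is not recorded, so their values are given as a description. RNA had been sequenced from sorted crypt cells of 8-week-old C57BL/6J mice in 4 groups of 5 libraries. The groups were GFP-low cells of Itgb7-/- Lgr5-GFP mice (KO), GFP-low cells of Itgb7+/+ Lgr5-GFP mice (WT), GFP-high cells of KO mice and GFP-high cells of WT mice. All mice carried the Lgr5-GFP reporter, whose GFP follows the stem cell receptor gene Lgr5, and the labels name GFP-high cells stem and GFP-low cells transient amplifying, the dividing progeny of stem cells. Every sample had been gated as viable EpCAM+ cells without CD45, CD31 and TER119, which mark leukocytes, endothelium and red cells. Itgb7 encodes the integrin beta 7 chain of gut-homing lymphocytes, and the labels give a germline genotype with no cell type limit.

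In the crypt, Wnt ligands stabilise beta-catenin, which joins TCF factors on DNA and raises transcription of target genes, Ascl2, Myc and Sox9 among them. Ascl2 is a basic helix-loop-helix (bHLH) factor that pairs with E proteins, binds E-boxes and maintains the Lgr5+ stem cell state in mice. Myc pairs with MAX and drives ribosome production, metabolism and division. Sox9 is an HMG-box factor of crypt-base cells that mice need to form Paneth cells, the antimicrobial secretory cells that sit between stem cells.

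On GRCm38, the assembly also called mm10, Ascl2 (ENSMUSG00000009248.6) lies on the minus strand at chr7:142966829-142969264, Myc (ENSMUSG00000022346.15) on the plus strand at chr15:61985391-61990374 and Sox9 (ENSMUSG00000000567.5) on the plus strand at chr11:112782224-112787760. No annotated gene overlaps any of the 3, and all their deposited counts were whole numbers. Myc shares chromosome 15 with Itgb7, at a gap of 40.23 Mb. Of the 3 genes, only Ascl2 was in the set of RefSeq promoters used here, so no window of Myc or Sox9 is shown. The 250 bases before the start of Ascl2 (RefSeq on GRCm38.p6, chr7:142969265-142969514, minus strand, written 5′ to 3′) are shown because Ascl2 is itself a bHLH factor, with its E-boxes, CANNTG, in capitals:
Ascl2 upstream: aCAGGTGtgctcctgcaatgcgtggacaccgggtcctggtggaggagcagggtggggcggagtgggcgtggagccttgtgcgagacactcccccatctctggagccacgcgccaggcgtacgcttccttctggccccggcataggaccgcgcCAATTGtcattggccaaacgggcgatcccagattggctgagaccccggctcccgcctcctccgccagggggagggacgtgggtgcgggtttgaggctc
The window held 2 E-boxes, CAGGTG with its first base 249 bases before the start and CAATTG 98 bases before it. At least 1 E-box was found in 66.2% of 32817 promoter windows of this length and at least 2 in 31.8%. On either strand, CACGTG, the E-box form that MYC with MAX binds, was not found here (6.02% of windows hold it), nor was the TCF core CTTTGA (13.8%). The SOX core ACAAT was found 1 time, overlapping the CAATTG E-box, and 27.7% of windows hold it. A match of letters is a description and says nothing of binding.

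Library totals ran from 20900404 to 27838392 counts over the 20 libraries. Levels are in CPM, counts scaled to a common library total, with TMM factors over all 20 that correct for composition. The factors ran from 0.729 to 1.147 and were lowest in WT GFP-low mice 3 and 8. The epithelial gene Epcam stood at 515 to 709 CPM in every library, and the leukocyte gene Ptprc, the endothelial gene Pecam1 and Itgb7 itself are not analysed here. Lgr5 averaged 7.00 ± 2.38 CPM in KO and 12.9 ± 6.71 CPM in WT GFP-low cells, against 105 ± 11.1 CPM in KO and 102 ± 20.0 CPM in WT GFP-high cells (SD, n = 5 each). The summed share of 28 measured Paneth cell markers of 33 listed was 3.49 to 14.9% of counts in KO and 7.61 to 26.5% in WT GFP-low cells, against 2.67 to 6.44% in KO and 2.23 to 8.44% in WT GFP-high cells. Both populations thus held stem cell and Paneth cell transcripts side by side. Bulk libraries do not tell fewer cells of a type from less RNA per cell.

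Ascl2 read 4.84, 3.62, 4.35, 4.89 and 3.76 CPM in GFP-low cells of KO mice 2 to 6, against 6.64, 6.47, 5.01, 6.73 and 4.89 CPM in those of WT mice 1, 3, 6, 7 and 8. In GFP-high cells it read 21.3, 27.3, 26.9, 21.3 and 22.0 CPM in the same KO mice, against 30.1, 27.3, 33.6, 27.3 and 31.3 CPM in the same WT mice. The populations stood far apart in both genotypes, while the genotypes overlapped within each population. In 24 of 25 KO-WT pairs of GFP-low libraries the KO value was the lower, and in 23 of 25 pairs of GFP-high libraries. Group means were 4.29 ± 0.593 CPM in KO and 5.95 ± 0.916 CPM in WT GFP-low cells, so KO stood at 72.2% of WT. In GFP-high cells they were 23.8 ± 3.06 CPM in KO and 29.9 ± 2.71 CPM in WT (SD, n = 5 each), or 79.5% of WT.

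Myc read 34.7, 47.8, 38.3, 35.1 and 31.8 CPM in GFP-low cells of KO mice 2 to 6, against 53.9, 45.3, 49.3, 88.7 and 68.6 CPM in those of WT mice 1, 3, 6, 7 and 8. In GFP-high cells it read 65.0, 84.2, 63.8, 79.7 and 80.5 CPM in the KO mice, against 74.0, 119.6, 149, 169 and 108 CPM in the WT mice. The groups overlapped in both populations, through KO mouse 3 in GFP-low cells and through WT mouse 1 in GFP-high cells. WT mouse 7 had the highest Myc level in both populations. Means were 37.5 ± 6.18 CPM in KO and 61.2 ± 17.7 CPM in WT GFP-low cells, or 61.4% of WT. They were 74.6 ± 9.50 CPM in KO and 124 ± 36.8 CPM in WT GFP-high cells, or 60.3% of WT (SD, n = 5 each). Relative to its mean, Myc varied more among WT mice than among KO mice, with a coefficient of variation of 16.5% in KO and 29.0% in WT GFP-low cells, and 12.7% in KO and 29.7% in WT GFP-high cells; this difference in spread was not tested. In WT GFP-high cells the highest Myc library, mouse 7, had the lowest Paneth share (2.23%) and the lowest Myc library, mouse 1, the highest (8.44%). In the other groups the library of lowest Paneth share was not that of highest Myc. The library of highest Paneth share also had the lowest Myc in KO GFP-high (mouse 4) and WT GFP-low cells (mouse 3). That was not so in KO GFP-low cells. The libraries of lowest and highest Paneth share read 65.0 and 63.8 CPM of Myc in KO GFP-high cells (mice 2 and 4). They read 34.7 and 38.3 CPM in KO GFP-low cells (mice 2 and 4), and 49.3 and 45.3 CPM in WT GFP-low cells (mice 6 and 3). The part of the Paneth share in the Myc level was not tested.

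Sox9 read 69.2, 85.4, 81.4, 93.4 and 85.6 CPM in GFP-low cells of KO mice 2 to 6, against 104.5, 154, 120.3, 143 and 159 CPM in those of WT mice 1, 3, 6, 7 and 8. These groups did not overlap, and every KO library was below every WT library. In GFP-high cells Sox9 read 268, 299.8, 245, 232 and 279 CPM in the KO mice, against 261, 308, 420.3, 271 and 317 CPM in the WT mice. There the groups overlapped, and WT mouse 6 was the highest library. Means were 83.0 ± 8.86 CPM in KO and 136 ± 23.2 CPM in WT GFP-low cells, or 60.9% of WT. They were 265 ± 27.0 CPM in KO and 315 ± 63.3 CPM in WT GFP-high cells, or 83.9% of WT (SD, n = 5 each). Over all 11284 genes held by both tables under a unique name, KO lay below WT without overlap for 0.434% in GFP-low cells and for 0.931% in GFP-high cells.

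**Figure D1:**
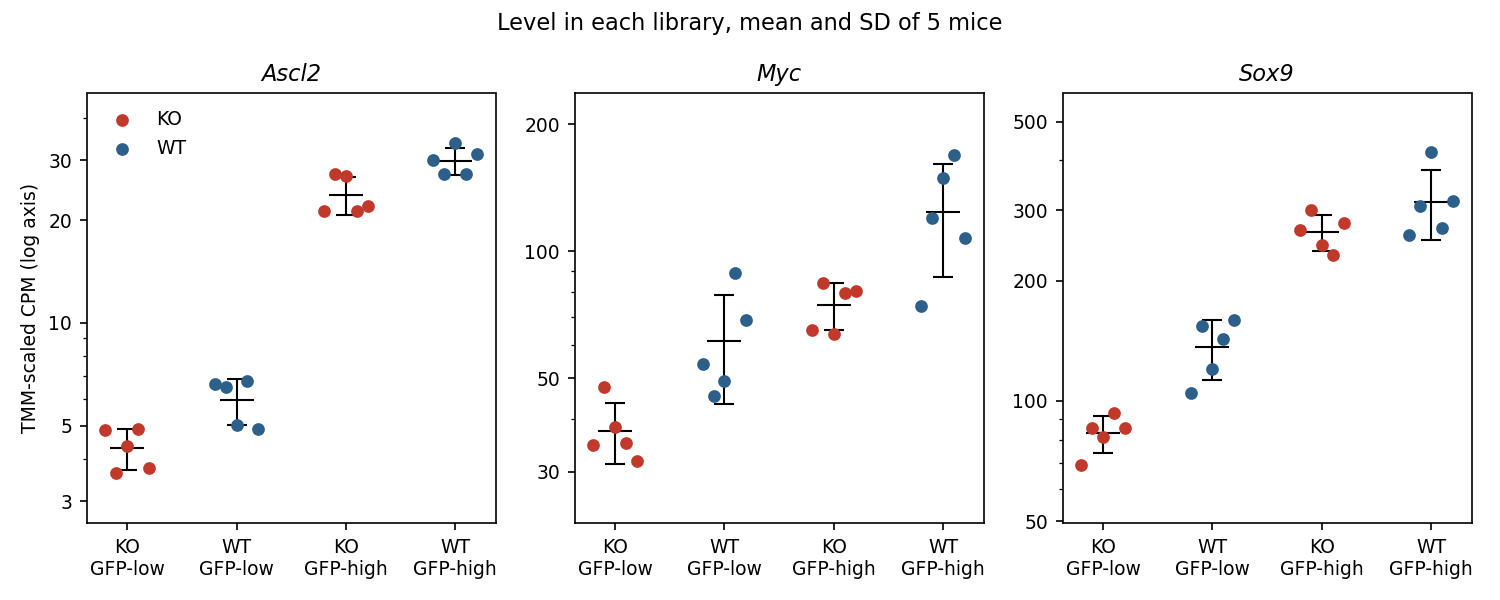
TMM-scaled CPM (log axis) of Ascl2, Myc and Sox9 in each of the 20 libraries by genotype and population; points are mice and bars the mean and SD of 5. Sox9 in GFP-low cells is the 1 of 6 genotype comparisons without overlap (69.2 to 93.4 CPM in KO against 104.5 to 159 CPM in WT).

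Each gene had the same order of group means, lowest in KO GFP-low, then WT GFP-low, then KO GFP-high, and highest in WT GFP-high cells. For Ascl2 and Sox9 the middle step was clear of overlap, while for Myc the WT GFP-low libraries (45.3 to 88.7 CPM) overlapped the KO GFP-high libraries (63.8 to 84.2 CPM). To compare genes, levels were divided by exon length, 1.623 kb for Ascl2, 2.717 kb for Myc and 4.135 kb for Sox9. In KO GFP-low cells the mean level was 2.65 CPM per kb for Ascl2, 13.8 for Myc and 20.1 for Sox9. In WT GFP-low cells it was 3.66 for Ascl2, 22.5 for Myc and 32.9 for Sox9. In KO GFP-high cells it was 14.65 for Ascl2, 27.5 for Myc and 64.0 for Sox9, and in WT GFP-high cells 18.4, 45.5 and 76.3 CPM per kb in the same gene order. Ascl2 was the lowest and Sox9 the highest of the 3 per length in all 4 groups.

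KO was compared with WT by edgeR's quasi-likelihood test over all genes of a population, with Benjamini-Hochberg adjustment at 0.05, to ask whether loss of Itgb7 went with a change in crypt cells. In GFP-low cells Sox9 had a log2 fold change of -0.71 ± 0.13 (SE; 95% interval -0.99 to -0.43; edgeR adjusted p = 0.370). Myc had -0.71 ± 0.18 (-1.10 to -0.31; edgeR adjusted p = 0.731) and Ascl2 -0.47 ± 0.17 (-0.84 to -0.10; edgeR adjusted p = 0.745). By unadjusted p, Sox9 ranked 3, Myc 25 and Ascl2 260 of 11778 genes. Such ranks are a description, since the genes were chosen with the tables in view. None of the 3 passed, in a comparison in which 0.00849% of genes did. The gene that passed was Arhgef10, at -2.30 ± 0.21 (edgeR adjusted p = 0.00069), and 744 genes (6.32%) had an unadjusted p under 0.05. DESeq2, the other count test run, called 12 genes, 1 higher and 11 lower, with Sox9 among them (log2 fold change -0.72, DESeq2 adjusted p = 0.00213) but not Myc (0.114) or Ascl2 (0.52).

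In GFP-high cells Myc had a log2 fold change of -0.72 ± 0.18 (95% interval -1.10 to -0.35; edgeR adjusted p = 0.184). Ascl2 had -0.33 ± 0.11 (-0.56 to -0.09; edgeR adjusted p = 0.303) and Sox9 -0.25 ± 0.12 (-0.52 to 0.02; edgeR adjusted p = 0.550). By unadjusted p, Myc ranked 65, Ascl2 353 and Sox9 1415. None passed, and neither did any of the 11745 genes tested (0% called), although 1150 (9.79%) had an unadjusted p under 0.05. DESeq2 called 145 genes, 50 higher and 95 lower, with Myc among them (log2 fold change -0.73, DESeq2 adjusted p = 0.00767) but not Ascl2 (0.171) or Sox9 (0.467). Without WT mouse 6, the library with the highest Sox9, the Sox9 difference was -0.12. All 3 genes had fold changes below 0 in both populations, as did 30.6% of 11283 genes. For single genes, two-sided exact permutation of the 5 KO and 5 WT libraries, which cannot give a p under 0.00794, gave 0.0159 for Ascl2, 0.0159 for Myc and 0.00794 for Sox9 in GFP-low cells. It gave 0.0238 for Ascl2, 0.0317 for Myc and 0.119 for Sox9 in GFP-high cells. These 6 values are not adjusted for the choice of genes, which was made with the tables in view, and they support nothing on their own.

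**Figure D2:**
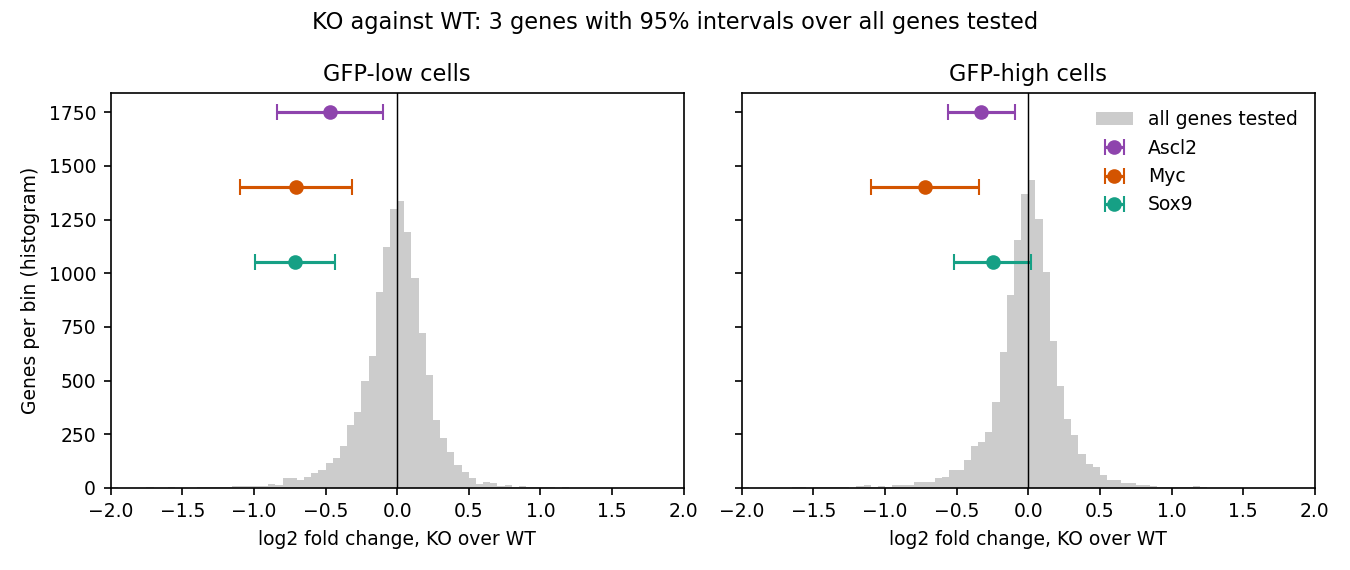
Log2 fold change of KO over WT in GFP-low (left) and GFP-high cells (right); points with bars are Ascl2, Myc and Sox9 with 95% intervals at arbitrary heights, over a histogram of all genes tested, with values beyond 2 in either direction drawn at the edge. All 6 points lie left of 0, and the Sox9 interval in GFP-high cells (-0.52 to 0.02) is the one that crosses it.

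The KO effects in the populations were compared by an interaction term over all 20 libraries. The fit had no term for the mouse, so its SE is not that of a paired comparison. In 7 alternatives, a term for each mouse among them, Sox9 ran from -0.47 to -0.31 and passed in none. The effect in GFP-low minus that in GFP-high cells was -0.46 ± 0.18 for Sox9 (95% interval -0.84 to -0.08), -0.14 ± 0.18 for Ascl2 and 0.02 ± 0.27 for Myc on the log2 scale (SE; edgeR adjusted p = 0.9996 for each). No gene of 11284 passed in edgeR (0% called; 353, or 3.13%, had an unadjusted p under 0.05) or in DESeq2. A difference between populations in the KO effect on Sox9 was therefore not shown.

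Paneth cells make Sox9, and 27 of 28 measured Paneth genes had a KO fold change below 0 in GFP-low cells (median log2 -0.81, against -0.0035 over all genes), with none passing in edgeR. The summed Paneth shares overlapped widely, and those of WT mice 1, 6 and 7 (11.9%, 7.61% and 13.4%) lay within the KO range of 3.49 to 14.9%. WT mice 3 and 8, at 26.5% and 25.1% Paneth counts, held the highest Sox9 levels, 154 and 159 CPM. KO mice 4 and 6, at 14.9% and 14.2%, held 81.4 and 85.6 CPM of Sox9, and WT mouse 6, at 7.61%, held 120.3 CPM. With WT mice 3 and 8 both left out, chosen after seeing the data, the Sox9 difference was -0.57 (edgeR adjusted p = 0.999), Myc's -0.78 and Ascl2's -0.52. The part of the Paneth share in the Sox9 difference was not tested.

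Markers of some other cell types also lay to one side in KO against WT, with none passing in edgeR. Over all genes, 50.8% had a KO fold change below 0 in GFP-low and 48.6% in GFP-high cells. In GFP-low cells 21 of 21 absorptive enterocyte markers (median log2 -0.36) and 9 of 10 tuft cell markers (-0.34) had a KO fold change below 0, and 4 of 5 leukocyte markers (0.62) one above 0. In GFP-high cells 15 of 15 goblet (median -0.49), 15 of 15 enteroendocrine (-0.95) and 7 of 8 tuft cell markers (-0.89) lay below 0, and 5 of 6 leukocyte markers (1.01) above 0. Other lists were near even. Below 0 lay 8 of 15 goblet (median -0.02) and 10 of 17 enteroendocrine markers (-0.02) in GFP-low cells, and 10 of 19 absorptive markers (-0.03) in GFP-high cells. Their summed shares of counts overlapped between the genotypes. In GFP-low cells absorptive markers took 0.257 to 0.493% in KO and 0.263 to 0.525% in WT libraries. In GFP-high cells goblet markers took 0.364 to 0.704% in KO and 0.332 to 0.864% in WT libraries, enteroendocrine markers 0.0186 to 0.0304% in KO and 0.0189 to 0.0755% in WT, and tuft markers 0.00115 to 0.00194% in KO and 0.00156 to 0.00334% in WT. Leukocyte markers stayed at or under 0.00586% of counts in every library. The part of these cell types in the values of Ascl2, Myc and Sox9 was not tested.

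**Figure D3:**
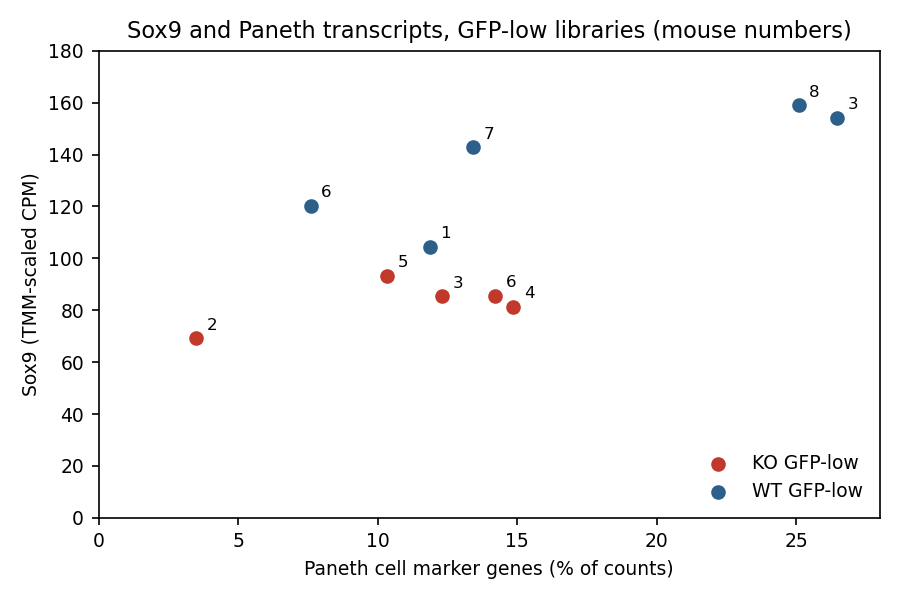
Sox9 in TMM-scaled CPM against the share of counts from 28 Paneth cell marker genes (%) in the 10 GFP-low libraries; each point is a mouse, marked with its number. All 5 KO points (69.2 to 93.4 CPM) lie below all 5 WT points (104.5 to 159 CPM), and WT mice 3 and 8 have the largest Paneth shares.

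Between the populations, all 3 genes were lower in GFP-low cells. The log2 fold change of GFP-low over GFP-high cells was -2.45 ± 0.13 in KO and -2.33 ± 0.13 in WT mice for Ascl2, -0.98 ± 0.12 in KO and -1.02 ± 0.23 in WT mice for Myc, and -1.66 ± 0.10 in KO and -1.21 ± 0.15 in WT mice for Sox9 (SE; described with no test). Mean levels in GFP-low cells were 18.1% in KO and 19.9% in WT mice of those in GFP-high cells for Ascl2, 50.3% and 49.5% for Myc in the same genotype order, and 31.4% and 43.2% for Sox9. The populations overlapped only for Myc in WT mice, where GFP-low was lower in 24 of 25 pairs; over all genes, GFP-low lay below GFP-high without overlap for 17.3% in KO and 13.7% in WT mice. The edgeR test called 50.5% of 11282 genes in KO mice (26.2% higher, 24.4% lower) and 43.4% of 11281 in WT mice (22% higher, 21.4% lower), so a difference between the populations was common. Most markers of differentiated cells were called higher in GFP-low cells. Goblet markers were so in 15 of 15 in both genotypes (median log2 3.26 in KO and 2.66 in WT mice). Of 15 enteroendocrine markers, 15 were higher in KO and 14 in WT mice. Of 19 absorptive markers, 16 were higher in KO, where 1 was lower, and 17 in WT mice. Of 8 tuft markers, 7 were higher in KO and 8 in WT mice. The part of these cell types in the levels of the 3 genes was not tested. With library totals in place of TMM factors the median over all genes moved to -0.27 in KO and -0.37 in WT mice. Of the calls, 27.3% were then higher in KO and 19.5% in WT mice, against 51.8% in KO and 50.6% in WT mice with TMM factors.

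The labels give the same numbers to both populations of a genotype, read here as the same mouse although no label states it, and a ratio was taken within each number. The GFP-low to GFP-high ratio of Ascl2 had a median of 0.171 in KO mice (0.132 to 0.229) and 0.221 in WT mice (0.149 to 0.247). For Myc it was 0.534 in KO mice (0.395 to 0.601) and 0.526 in WT mice (0.332 to 0.729). For Sox9 it was 0.307 in KO mice (0.258 to 0.403) and 0.501 in WT mice (0.286 to 0.527). The genotypes overlapped for each gene, and no ratio reached 1 in any mouse.

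**Figure D4:**
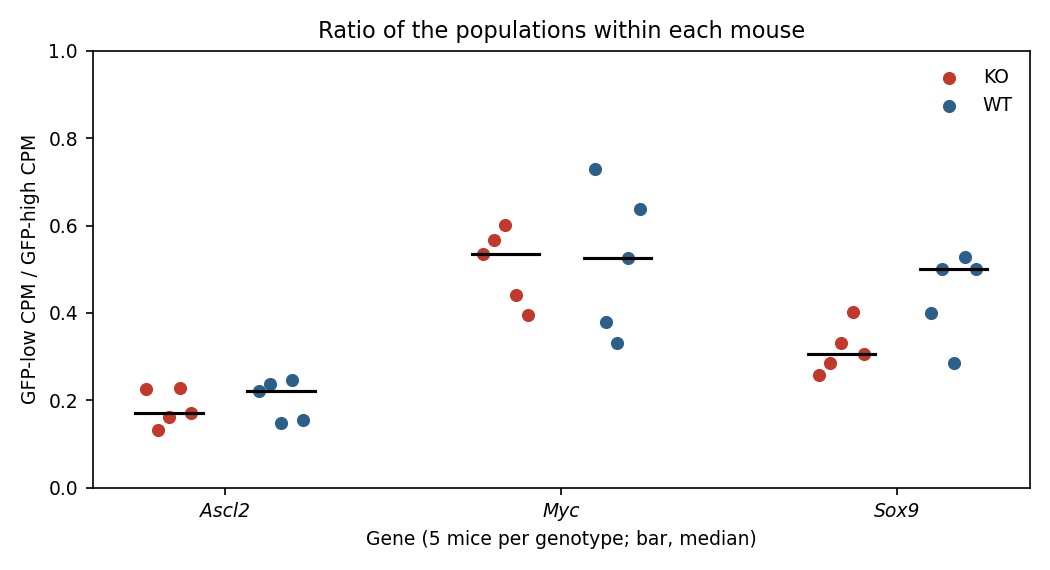
Ratio of GFP-low to GFP-high CPM within each mouse for Ascl2, Myc and Sox9, 5 KO and 5 WT mice; bars are medians. Every ratio is below 1, Ascl2 has the lowest (0.132 to 0.247 over all 10 mice), and for Sox9 the medians are 0.307 in KO and 0.501 in WT mice.

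Wnt genes other than the 3 were counted in lists by role, beside 24.4% of all genes lower and 26.2% higher in KO mice, and 21.4% lower and 22% higher in WT mice. Of 15 measured Wnt target and feedback genes, 12 fell and 2 rose in GFP-low cells of KO mice (median log2 -1.43, against -0.01 over all genes), and 11 fell and 2 rose in WT mice (median -1.10, against -0.01). Axin2, a feedback scaffold that promotes beta-catenin loss, fell by 2.33 on the log2 scale in KO and by 1.97 in WT mice. Rnf43, a ligase that removes Wnt receptors, fell by 1.79 in KO mice, and the adhesion receptor gene Cd44 fell by 1.81 in WT mice. The 2 that rose in each genotype were the Paneth protease gene Mmp7 (1.5 in KO and 1.52 in WT mice) and Prox1 (1.46 in KO and 1.60 in WT mice), a homeobox factor of enteroendocrine cells; both were picked out after their values were seen, and without WT GFP-low mice 3 and 8, 1 of them rose in WT mice. Of 17 genes of Wnt signal transduction, 4 fell and 1 rose in KO mice, and 4 fell and 2 rose in WT mice; the shares that fell are near those of all genes. With library totals as the scale 12 fell in KO and 10 in WT mice, and 1 gene rather than 2 rose in WT mice without GFP-low mouse 3 or 8 or GFP-high mouse 1, 3 or 6. The receptor gene Fzd7 fell by 1.76 in KO and by 1.55 in WT mice, and the receptor gene Fzd5 rose by 0.68 in KO and 0.61 in WT mice, the WT call being lost with library totals as the scale (0.25). Leaving out WT GFP-low mice 3 and 8, 1 transduction gene fell and 1 rose in WT mice.

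All 16 crypt stem cell markers fell in both genotypes (median -2.29 in KO and -2.02 in WT mice), beside 24.4% of all genes lower in KO and 21.4% in WT mice. The cells had been sorted by Lgr5-GFP, so a fall of stem cell markers was built into this comparison. Lgr5 is itself 1 of the 16, and is also counted among the Wnt targets that fell. The log2 fold change of Ascl2 was close to the list median, and those of Myc and Sox9 were smaller in size. Among the 16 markers Fstl1 fell by 3.67 and Gkn3 by 3.34 in KO mice, and Igfbp4, which binds insulin-like growth factors, fell by 2.40 in WT mice. In KO against WT, no Wnt or stem cell gene passed in edgeR. In GFP-low cells 12 of 15 Wnt targets and 13 of 16 stem cell markers had a KO fold change below 0 (medians -0.11 and -0.20), against 50.8% of all genes. In GFP-high cells 6 of 17 Wnt targets and 11 of 16 stem cell markers did (medians 0.06 and -0.08), against 48.6% of all genes. The Wnt targets of smallest p were Znrf3 (-0.45) and Tnfrsf19 (-0.99) in GFP-low and Cd44 (0.29) and Ephb2 (0.17) in GFP-high cells. Stem cell markers of smallest p were Gkn3 (-0.71) and Tnfrsf19 in GFP-low and Lrig1 (0.32) and Ptpro (0.25) in GFP-high cells. Axin2 stood at 38.6 CPM in KO and 49.55 CPM in WT GFP-low cells, and at 196 CPM in KO and 194 CPM in WT GFP-high cells. Olfm4, a stem cell marker, stood at 3087 CPM in KO and 2928 CPM in WT GFP-high cells. The summed share of stem cell markers had a median of 0.138% in KO and 0.129% in WT GFP-low cells, and of 0.752% in KO and 0.750% in WT GFP-high cells.

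Ascl2 acts with E proteins and is opposed by Id proteins, which bind E proteins without DNA. The list held E protein genes, Id genes and the repressor gene Hes1. Of 7 of its genes compared between populations, 2 fell and 1 rose in KO mice, and 3 fell and 1 rose in WT mice (4 fell in KO mice with library totals). Over all genes 24.4% were lower and 26.2% higher in KO mice, and 21.4% lower and 22% higher in WT mice, so counts over 7 genes do not set the list apart. The E protein gene Tcf4 fell by 0.78 in KO and by 0.52 in WT mice, and the repressor gene Hes1 fell by 0.69 in KO and by 0.91 in WT mice. The inhibitor gene Id3 rose by 0.70 in KO and 0.52 in WT mice, the WT call being lost with library totals (0.18) and without GFP-low mouse 1 or 6 or GFP-high mouse 7 or 8 (0.41 to 0.49). In KO against WT none of 8 genes in GFP-low cells or 7 in GFP-high cells passed in edgeR, with Id2 at -0.44 ± 0.15 (edgeR adjusted p = 0.745) in GFP-low and Tcf4 at 0.25 ± 0.11 (0.462) in GFP-high cells.

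Among 17 genes of the MYC/MAX network, 6 fell and 3 rose in GFP-low cells of KO mice, and 8 fell and 3 rose in WT mice (10 fell in KO mice with library totals), beside all-gene shares of 24.4% lower and 26.2% higher in KO mice and 21.4% lower and 22% higher in WT mice. Mxd1, which pairs with MAX and opposes MYC, rose by 1.16 in KO and 1.29 in WT mice, and Mlx, the partner of the MONDO factors, rose by 1.23 in KO and 1.11 in WT mice. The paralog Mycl fell by 0.89 in KO and by 1.19 in WT mice, while Mycn, the other paralog, did not pass (0.08 in KO and 0.17 in WT mice). Max stood at 43.7 CPM in KO and 51.9 CPM in WT GFP-low cells, and at 42.4 CPM in KO and 49.5 CPM in WT GFP-high cells. Its KO fold change was -0.25 in GFP-low and -0.22 in GFP-high cells and did not pass in edgeR (adjusted p = 0.793 and 0.437).

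Of 58 measured MYC target genes, 37 fell and 4 rose in GFP-low cells of KO mice (median log2 -0.37), and 37 fell and 1 rose in WT mice (median -0.46). All-gene shares were 24.4% lower and 26.2% higher in KO mice, and 21.4% lower and 22% higher in WT mice. With the mouse as a block, 4 rose in WT mice, and with library totals 1 rose in KO mice. The nucleolar genes Npm1 and Ncl fell by 0.90 and 0.79 in KO mice and by 0.77 and 0.67 in WT mice. Cdk4, a kinase of the cell cycle entry, fell by 0.58 in KO and by 0.71 in WT mice. In KO against WT none of the 58 passed in edgeR. In GFP-low cells 29 of 58 had a KO fold change below 0 (median -0.0017), against 50.8% of all genes, while Myc stood at -0.71. In GFP-high cells 41 of 58 did (median -0.06), against 48.6% of all genes. There the nucleoside transporter gene Slc29a2 had -0.64 ± 0.17 (edgeR adjusted p = 0.201; DESeq2 0.0409) and the mitotic kinase gene Plk1 0.47 ± 0.13 (edgeR adjusted p = 0.218; DESeq2 0.0455).

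Other SOX genes were few in these tables. Of 14 listed, 4 were compared between populations, and all 4 fell in GFP-low cells of KO mice and 3 in those of WT mice. Over all genes 24.4% were lower in KO and 21.4% in WT mice, and 4 genes are too few to speak for the family. Sox4, an HMG-box factor of crypt progenitors, fell by 1.58 in KO and by 1.60 in WT mice, and Sox12 by 2.02 in KO and 0.86 in WT mice at levels under 4 CPM, the WT call being lost without mice 3 and 8. In KO against WT none passed in edgeR; Sox12 stood at -1.20 ± 0.35 (edgeR adjusted p = 0.745) in GFP-low cells and Sox4 at -0.16 ± 0.10 (0.668) in GFP-high cells. All 28 Paneth genes rose in GFP-low cells of both genotypes (median 1.60 in KO and 2.44 in WT mice), whereas Sox9 was lower there.

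**Figure D5:**
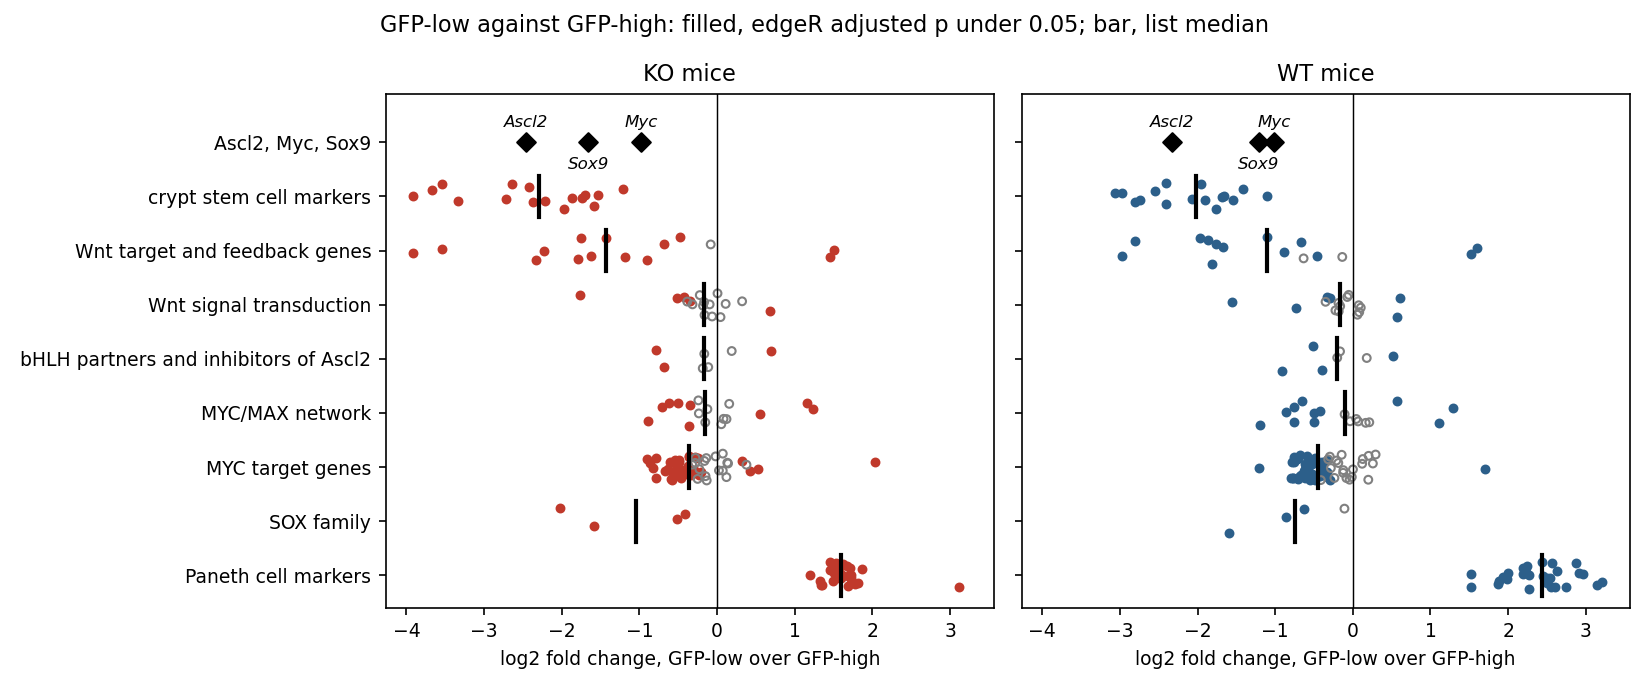
Log2 fold change of GFP-low over GFP-high cells in KO (left) and WT mice (right) for Ascl2, Myc and Sox9 (diamonds) and for the genes of 8 lists without them; filled points passed edgeR's adjusted p of 0.05, open points did not, and bars are list medians. The crypt stem cell markers lie wholly left of 0 (median -2.29 in KO and -2.02 in WT mice) and the Paneth genes wholly right (median 1.60 in KO and 2.44 in WT mice).

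Measured neighbours within 500 kb numbered 10 for Ascl2, 1 for Sox9 and 0 for Myc. None passed in KO against WT, where 0.00849% of all genes did in GFP-low and 0% in GFP-high cells. Between the populations 50.5% of all genes passed in KO and 43.4% in WT mice. The Ascl2 neighbours Th (-0.55 in KO and -0.42 in WT mice) and Tssc4 (0.18 in KO and 0.07 in WT mice) passed in neither. Next to Ascl2, the tetraspanin gene Cd81 at a distance of 83.5 kb fell by 1.01 in KO and by 0.96 in WT mice in GFP-low cells, and the potassium channel gene Kcnq1 at 137 kb fell by 1.38 in KO and by 1.36 in WT mice. The cell cycle inhibitor gene Cdkn1c at 489 kb rose by 2.20 in KO and 1.38 in WT mice, and the tuft cell channel gene Trpm5 at 99.9 kb rose by 1.85 in KO and 1.59 in WT mice. The zinc transporter gene Slc39a11 near Sox9, at 457 kb, rose by 1.21 in KO and 0.85 in WT mice.

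Genes with the most similar pattern were ranked by Pearson's r of log2 CPM with each gene over the 20 libraries, among 7984 genes. These r are descriptions, since the libraries share 2 populations and 10 mice. For Ascl2 the closest were Gkn3 (r = 0.979), Axin2 (0.979), Zfp618 (0.974), Arid5b (0.974) and Rgmb (0.973). For Sox9 they were Rgmb (r = 0.946), Ascl2 itself (0.945), Gper1 (0.941), Immp2l (0.941) and Mecom (0.939). Myc followed less closely, with Ppan, a ribosome assembly gene, first (r = 0.909), then Tfpi (0.897), Zfp26 (0.894), the MAX partner Mga (0.885) and Aasdhppt (0.884).

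By level, Sox9 ranked 52 and Myc 871 of 7984 genes in likeness to Ascl2, and Sox9 ranked 18 in likeness to Myc. Once group means were taken out, the r between the 3 genes was lower for each pair. The r of deviations over the 20 libraries was -0.07 between Ascl2 and Myc, 0.09 between Ascl2 and Sox9, and 0.33 between Myc and Sox9, where the r of levels had been 0.801, 0.945 and 0.86. The deviations of Myc were closest to those of Zfp422 (r = 0.881), Zfp263 (0.855), Zfp26 (0.841), Cpsf6 (0.832) and Grn (0.817). Those of Sox9 were closest to Nt5c3 (r = 0.807), Arnt (0.759), Camk2n1 (0.728), B4galt1 (0.706) and Tmem126a (0.686). Those of Ascl2 were closest to Sp3 (r = 0.692), Park7 (0.655), Dpyd (0.645), Htt (0.625) and Hyal1 (0.618).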

How the data were processed

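Crypts were isolated in EDTA, made into single cells with TrypLE and sorted, per the labels' protocols, and library strand is not stated there. For each population the authors deposited a table of expected counts, with TopHat2, Bowtie2, RSEM and build mm10 named in the submitters' processing notes without versions or roles. Of the deposited expected counts 13.7% in each table were not whole, and all were rounded. The lowest mean count of an entry was 16.8 in GFP-low and 17.0 in GFP-high cells, so weaker genes are not analysed here. Names altered to dates (17 in GFP-low, 16 in GFP-high) and shared by several entries (30 and 34) were left out of comparisons between populations.

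Tests used edgeR 4.0.16 in R 4.3.3 (quasi-likelihood test, TMM factors, filterByExpr with a minimum count of 10, Benjamini-Hochberg over all genes, 0.05), without a block. SE came from the F statistic. The code was tested on simulated counts. DESeq2 1.42.0, other scalings, no filter, 1 fit over all libraries, a replicate block and leaving out each library were alternatives. Log2 CPM used a prior count of 2. Exon lengths and positions came from GENCODE M21. Replicates are the numbered samples, read as mice, and p-values measure the spread between them; no pair of libraries held the same values, the lowest chi-square per gene within a group being 18.9. Same-numbered libraries of a genotype were taken to be 1 mouse, which the labels' numbers show without saying so. Their deviations from group means correlated at 0.165 to 0.693 for all 10 numbers, highest with the own number in 9 but not for WT mouse 3 (0.165, against 0.197 with another number), and the text gives a value with the mouse as a block where it moved a count. KO and WT mice share only the numbers 3 and 6.

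The 3 genes and the gene lists were chosen with earlier results of these data known. Named genes were the 3 members, the 4 list genes of smallest p per comparison (2 where none passed), the 5 most alike genes (mean log2 CPM from 3 up), and Lgr5 and Itgb7 as checks; other genes named, neighbours included, were chosen after their values were seen.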

Additional observations from a re-analysis of the deposited data

Results flagged for a closer look

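Of 50 groups of 5 values tested for a library far from the rest, 3 were met, all in GFP-high cells of KO mouse 5, and chance flags about 1 in 20 groups. Its goblet cell markers took 0.704% of counts, its enteroendocrine markers 0.0304% and Vim, the measured gene of the stroma list, 0.000456%, each the highest of the KO GFP-high libraries by a wide gap. No level or ratio of Ascl2, Myc or Sox9 stood apart in this way. In that library Ascl2 was 21.3, Myc 79.7 and Sox9 232 CPM, and Sox9 was the lowest of its group.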

How the results depend on the processing

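In GFP-high cells the count of genes passing in KO against WT was 0, but 145 in DESeq2 and 122 with a replicate block, and 0 to 1 when each library was left out, the 1 without KO mouse 2. Myc there passed in DESeq2 (-0.7312) and with the replicate block (-0.6878), and ran from -0.8607 to -0.5867 with a library left out. In GFP-low cells the count was 1, but 12 in DESeq2 and 36 with the replicate block, and 1 to 2 with a library left out, the 2 without KO mouse 4. Sox9 there passed in DESeq2 (-0.7217), and Myc was -0.2728 with the replicate block, against -0.7061 without it. KO and WT mice share only a number, and the block uses only the pairs numbered 3 and 6. With the mouse as a block, GFP-low against GFP-high changed no call of the named genes, and no list count by over 1.5 times but that of MYC targets higher in WT mice. With library totals in place of TMM factors, GFP-low against GFP-high was -2.711 for Ascl2, -1.238 for Myc and -1.929 for Sox9 in KO mice, and -2.678 for Ascl2 and -1.586 for Sox9 in WT mice; this scaling also put the median of all genes at 0.145 for KO against WT in GFP-low cells and at 0.112 for the interaction. The interaction of Myc, near 0, turned below 0 in 8 of 20 leave-outs (-0.1133 to 0.1894) and at -0.04118 with WT GFP-low mice 3 and 8 left out. The permutation difference for Ascl2 in GFP-high cells ran from -0.3872 to -0.2916, with p = 0.0556 (exact) without WT mouse 1, 6 or 8. The cause of these changes was not tested. The 3 genes kept a fold change below 0 in KO against WT, and in GFP-low against GFP-high, under all alternatives run. Between populations in WT mice, Tcf3 lost its call in most leave-outs, and Axin1, Bcl9l and Sox12 without mice 3 and 8; Sox13 lost its KO call without KO GFP-low mouse 2, 4 or 6 or GFP-high mouse 6. Limits of depth were not compared between genes.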
